A study of Oryza sativa with 12 samples.

Results

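The aquaporins of rice (Oryza sativa) are described here across 12 RNA sequencing libraries. They were taken as the loci whose annotation contains the word aquaporin, with 1 row for each gene name, which gave 32 of the 50708 loci in the deposited table. The annotation names 12 of them PIP, 9 TIP, 9 NIP and 2 SIP, and 27 passed the filter on low counts (10 PIP, 9 TIP, 6 NIP and 2 SIP). A pair of near-isogenic lines was sampled at the filling stage, the heat-tolerant XN0437T and the heat-sensitive XN0437S. Each line was kept under high night temperature stress or in control, so the groups were tolerant stress, tolerant control, sensitive stress and sensitive control, with 3 libraries each. Per the labels' protocols all libraries were made from total RNA depleted of ribosomal RNA. Each degree of heat tolerance is represented by 1 line, and the sources used here do not give the temperature, the length of the stress, the organ or the age in days. Whether the 3 libraries of a group stem from different plants is not labelled, and p-values therefore reflect library-to-library spread alone, some or all of it possibly technical.

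Aquaporins are membrane channels of the major intrinsic protein family that let water, and in some classes small uncharged solutes, cross membranes along their gradient. Plasma membrane intrinsic proteins (PIP) carry water across the cell surface, and PIP1 members generally depend on PIP2 partners to reach it. Tonoplast intrinsic proteins (TIP) sit in the vacuolar membrane, where those of the TIP3 type belong to the protein storage vacuoles of seeds. Nodulin 26-like intrinsic proteins (NIP) include channels for silicic acid, boric acid and arsenite, and small basic intrinsic proteins (SIP) were placed in the endoplasmic reticulum in Arabidopsis. While grains fill, water and solutes move through these membranes into cells that enlarge and load storage vacuoles.

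Library totals ran from 85496090 to 100353570 counts, of which aquaporins took 0.289% to 0.392%. Factors of TMM, the scaling between libraries, were 1.11 to 1.18 in the stress libraries. They were 0.981, 0.923 and 0.844 in tolerant control, and 0.838 to 0.855 in sensitive control. The 5 loci with the most counts took 23.2%, 24.6% and 33.5% of the counts in tolerant control, and 32.8% to 33.7% in sensitive control. Marker genes, 5 each of endosperm, of embryo and aleurone and of green tissue, were followed in CPM (counts scaled to library size with TMM). None was at 0 in any library, which at these totals does not by itself show that a tissue was present. The lowest level in a library was 274 CPM for the endosperm, 13.1 CPM for the embryo and aleurone and 7.90 CPM for the green tissue genes. The summed endosperm markers were at 6768 to 6908 CPM in tolerant stress, against 19679 to 19866 CPM in tolerant control. In the sensitive line they were at 6950 to 7058 CPM under stress, against 18658 to 18820 CPM in control. All 5 endosperm markers fell in both lines. The embryo and aleurone sum was 2045 ± 41.7 CPM in tolerant stress and 3763 ± 166 CPM in tolerant control, and 2505 ± 84.6 CPM in sensitive stress and 3571 ± 20.2 CPM in sensitive control (mean ± SD, n = 3), with 3 of 5 genes lower in the tolerant line and 2 lower and 1 higher in the sensitive line. The green tissue sum was 561 ± 12.7 CPM in tolerant stress and 681 ± 18.0 CPM in tolerant control, and 600.1 ± 20.2 CPM in sensitive stress and 640.0 ± 9.92 CPM in sensitive control, with 2 of 5 higher and 2 lower in each line. In the deposited FPKM the green tissue sum went the other way, at 319.5 ± 12.7 in tolerant stress and 285 ± 6.99 in tolerant control, and 342 ± 14.0 in sensitive stress and 261 ± 1.09 in sensitive control. In libraries of whole tissue, fewer cells of a type and less RNA per cell cannot be told apart. The part of these shifts in the aquaporin results below was not tested.

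Levels between genes are compared in FPKM, the deposited values scaled per kilobase. TIP3-1 (LOC_Os10g35050, chromosome 10, 18701132 to 18702561), a seed-type vacuolar aquaporin, stood far above the rest. Its FPKM was 1359.7, 1400.2 and 1397 in tolerant stress and 1070.2, 1039 and 1126 in tolerant control. It was 1497, 1526 and 1454 in sensitive stress and 989, 974 and 974 in sensitive control. TIP3-1 alone made up 56.6% to 67.5% of the summed aquaporin FPKM of a library. Next by mean FPKM over the 12 libraries came TIP1-1 (195), PIP2-1 (189), PIP1-2 (135), PIP1-3 (62.8), PIP1-1 (51.2), TIP2-2 (35.7) and TIP3-2 (19.5). The order of TIP1-1 and PIP2-1 depended on the group: in both stress groups every TIP1-1 value was above every PIP2-1 value, and in both control groups every TIP1-1 value was below. SIP1-1 (19.4) followed TIP3-2 closely: their libraries overlapped in both control groups, while TIP3-2 was above SIP1-1 in every stress library. In all, 10 members averaged at least 10 FPKM. The highest NIP, NIP2-2, averaged 6.33 FPKM.

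**Figure D1:**
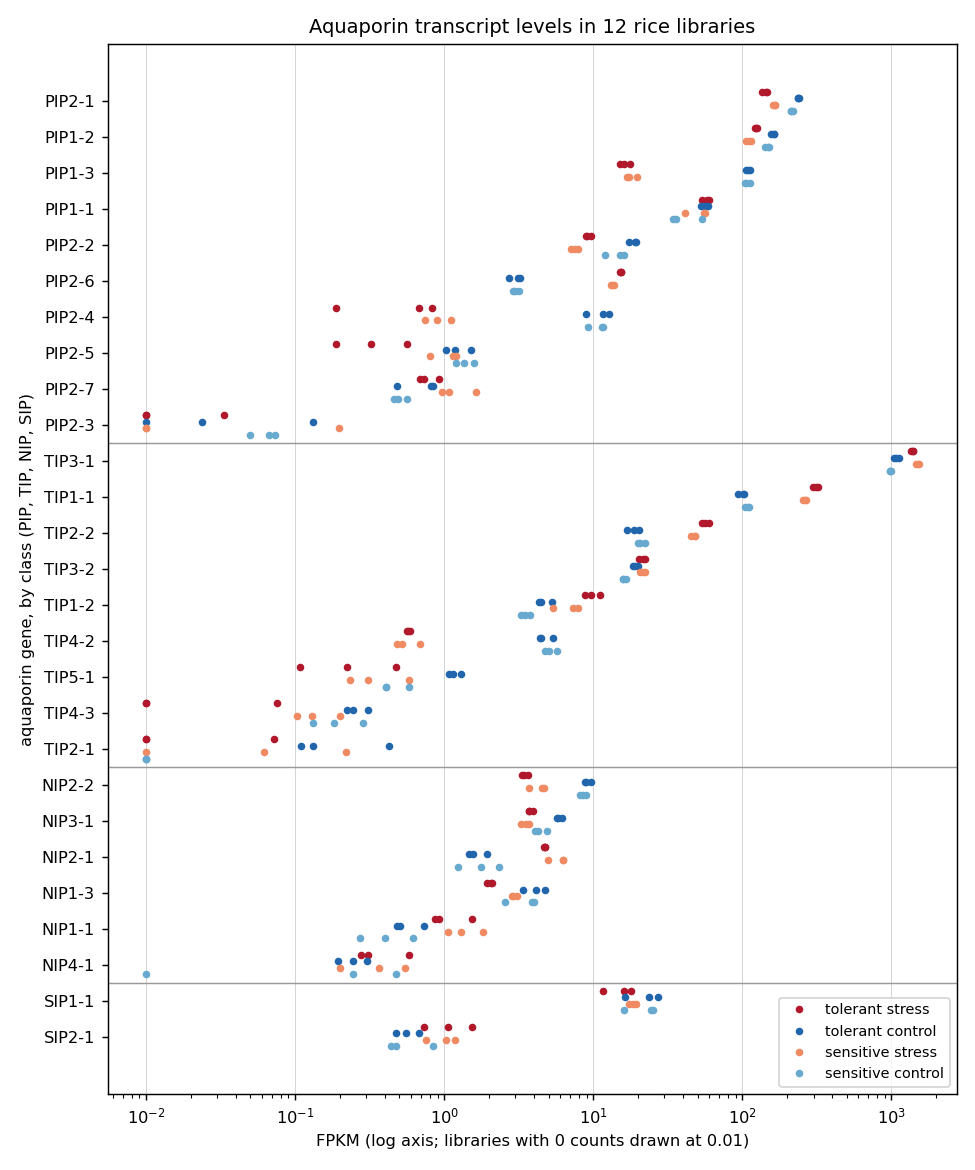
FPKM on a log axis of the 27 tested aquaporins, ordered by class and mean level, with 1 point for each of the 3 libraries of a group and libraries without a count drawn at 0.01. TIP3-1 lies near 1000 FPKM in all groups, while PIP1-3, PIP2-4 and TIP4-2 show stress libraries far to the left of the control libraries.

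At the other end, NIP3-2 and NIP3-3, neighbours on chromosome 8, had 0 counts in all 12 libraries. PIP2-8, NIP1-4 and a locus annotated as a putative PIP2.4 (LOC_Os10g34000) had counts in 1, 3 and 2 libraries, at most 8, 9 and 26 counts. These 5 members were not tested. A further 4 tested members, PIP2-3, TIP2-1, TIP4-3 and NIP4-1, had a mean below 1 FPKM in every group. Between 37.6% and 40.8% of the counts from 1 to 20 in the table were multiples of 4, so counts this low may hold fewer fragments than their size says.

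The first comparison set stress against control within each line. Most aquaporins changed, and most of those changed alike in both lines: 5 rose in both (PIP2-6, TIP1-1, TIP1-2, TIP2-2 and NIP2-1) and 10 fell in both (PIP1-2, PIP1-3, PIP2-1, PIP2-2, PIP2-4, TIP4-2, NIP1-3, NIP2-2, NIP3-1 and SIP1-1). In the tolerant line 18 of 27 tested members were called at an adjusted p under 0.05 by edgeR, 5 higher and 13 lower, where 33.2% of all 33281 tested loci were called, 16.7% higher and 16.6% lower. In the sensitive line 18 were called, 8 higher and 10 lower, against a background of 32.1%, with 16.3% higher and 15.9% lower. The called members made up 66.7% of those tested in each line. That share was not tested against the background. The median log2 fold change of the tested members was -0.89 in the tolerant line and -0.43 in the sensitive line, where the median of all tested loci was 0.05 and 0.04. These changes are relative to the median locus: with library totals alone that median moved to 0.37 in the tolerant and 0.46 in the sensitive line, and the calls were then 6 higher and 11 lower in the tolerant line and 9 higher and 8 lower in the sensitive line. Of all loci, 35.9% and 37.2% were called with library totals alone. In FPKM with a pseudocount of 1, among loci with a mean of at least 1 FPKM in some group, limma called 9 of 23 members higher and 12 lower in the tolerant line, where 54.8% of all loci in that fit were called, and 9 higher and 8 lower in the sensitive line, where 55.4% were called.

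**Figure D2:**
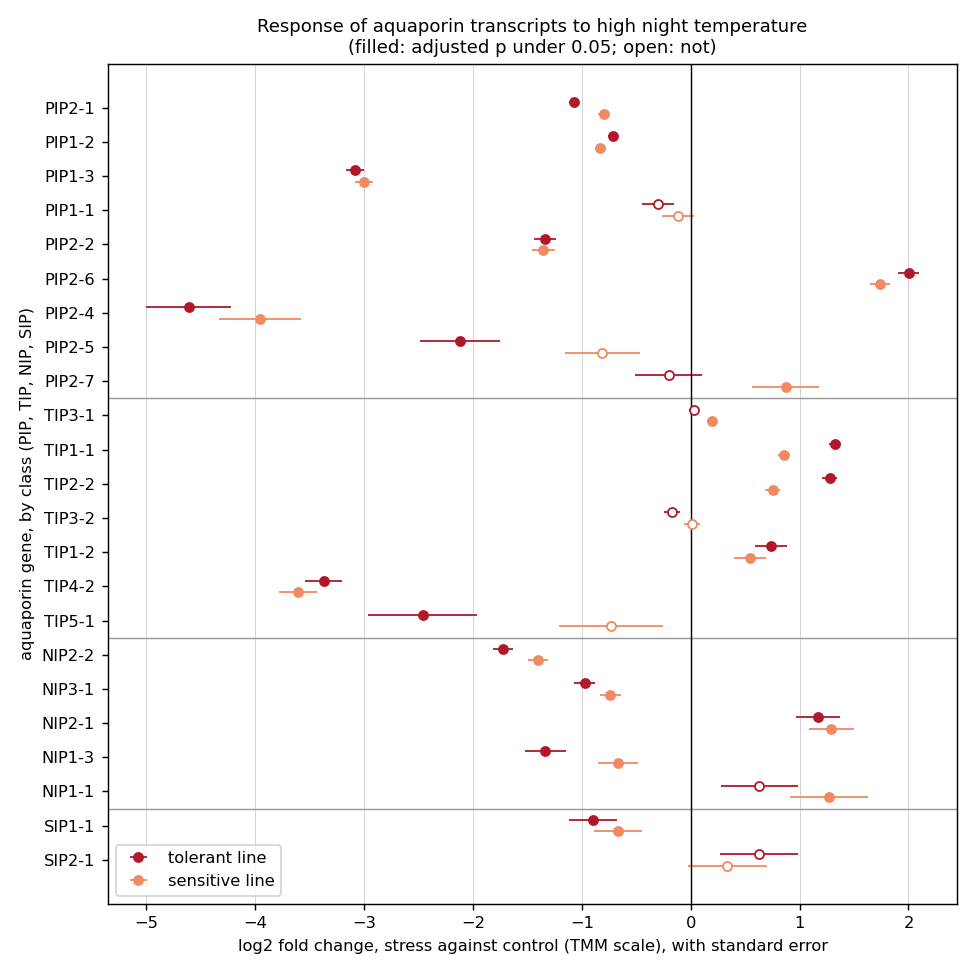
Fitted log2 fold change of stress against control on the TMM scale, with its standard error, for the 23 tested aquaporins that reached 1 CPM in some group mean; filled points passed an adjusted p under 0.05. Among PIP genes PIP2-6 (2.00 in the tolerant and 1.74 in the sensitive line) lies to the right of 0 while PIP2-4 and PIP1-3 lie at or beyond about -3, and TIP1-1 and TIP2-2 lie further right in the tolerant line.

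More plasma membrane aquaporins fell than rose. Of 10 tested PIP genes, 1 rose and 6 fell in the tolerant line, and 2 rose and 5 fell in the sensitive line. In each line 3 were not called, and the medians were -1.21 and -0.81 (log2). PIP1-3 (LOC_Os02g57720, chromosome 2, 35349673 to 35351454) fell most among the abundant members. In the tolerant line it had 28.8, 31.8 and 26.4 CPM under stress, against 251, 235 and 252 CPM in control. In the sensitive line it had 30.9, 34.7 and 30.5 CPM under stress, against 253, 269 and 246 CPM in control. The groups lay far apart in both lines, with log2 fold changes of -3.08 ± 0.08 (SE; adjusted p = 5.14e-11) in the tolerant and -3.00 ± 0.08 (adjusted p = 1.26e-10) in the sensitive line. PIP1-3 thereby fell to 4.45 ± 0.347% of the summed PIP FPKM in tolerant stress, against 18.3 ± 0.374% in tolerant control, and to 4.90 ± 0.378% in sensitive stress, against 19.9 ± 0.541% in sensitive control (SD, n = 3).

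The other PIP1 genes had smaller fitted changes. PIP1-2 (LOC_Os04g47220, chromosome 4, 28046537 to 28048542) had 192, 189 and 190.2 CPM in tolerant stress, against 315, 299 and 325 CPM in tolerant control. It had 167, 168 and 174 CPM in sensitive stress, against 308, 294 and 307 CPM in sensitive control. All stress libraries were below all control libraries, with log2 fold changes of -0.72 ± 0.05 (adjusted p = 1.2e-07) in the tolerant and -0.84 ± 0.05 (adjusted p = 4.42e-08) in the sensitive line. With library totals alone these values were -0.40 and -0.42. PIP1-1 (LOC_Os02g44630, chromosome 2, 27044319 to 27047453) had 112, 104 and 111 CPM in tolerant stress and 134, 139 and 129 CPM in tolerant control. It had 80.4, 105 and 104 CPM in sensitive stress and 91.4, 137 and 86.4 CPM in sensitive control, where replicate 2 was the highest of the control libraries. Neither difference passed (-0.30 ± 0.15, adjusted p = 0.152, and -0.12 ± 0.15, adjusted p = 0.609), although the stress libraries of the tolerant line were all below its control libraries. Without sensitive control replicate 2 the tolerant difference was -0.30 with an adjusted p of 0.0279. With library totals alone PIP1-1 turned to 0.01 in the tolerant (adjusted p = 0.957) and 0.30 in the sensitive line (adjusted p = 0.165). In FPKM it averaged 57.1 ± 3.12 in tolerant stress and 55.9 ± 3.16 in tolerant control (SD). The sensitive line had 50.7 ± 8.37 FPKM under stress and 41.1 ± 10.6 in control.

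PIP2-1 (LOC_Os07g26690, chromosome 7, 15406442 to 15409801), the most abundant PIP, fell in both lines. In the tolerant line its level was 247, 250.2 and 226 CPM under stress, against 504, 499.6 and 515 CPM in control. Sensitive libraries had a level of 287, 269.7 and 279 CPM under stress, against 483, 479.6 and 491 CPM in control. The fitted changes were -1.07 ± 0.05 (adjusted p = 4.1e-09) and -0.80 ± 0.05 (adjusted p = 7.39e-08), and -0.75 and -0.38 with library totals alone. PIP2-2 (LOC_Os02g41860, chromosome 2, 25162543 to 25166617) had 24.4, 26.8 and 24.1 CPM in tolerant stress, against 64.1, 65.4 and 61.2 CPM in tolerant control. It had 22.1, 20.3 and 19.0 CPM in sensitive stress, against 43.8, 58.9 and 54.3 CPM in sensitive control. Its groups did not overlap and the changes were -1.34 ± 0.10 (adjusted p = 6.85e-07) and -1.35 ± 0.10 (adjusted p = 8.13e-07).

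PIP2-6 (LOC_Os04g16450, chromosome 4, 8948050 to 8950028) rose in both lines. It had 31.8, 32.0 and 30.4 CPM in tolerant stress, against 6.99, 7.93 and 8.62 CPM in tolerant control. It had 29.1, 26.5 and 27.2 CPM in sensitive stress, against 8.82, 7.94 and 8.08 CPM in sensitive control. Every stress library was above all control libraries, with log2 fold changes of 2.00 ± 0.09 (adjusted p = 6.38e-09) and 1.74 ± 0.09 (adjusted p = 3.25e-08). PIP2-6 nevertheless remained a minor PIP, with 4.19% of the PIP FPKM in tolerant stress, against 0.506% in tolerant control, and 3.66% in sensitive stress, against 0.559% in sensitive control. PIP2-7, named after its values were seen, was called higher in the sensitive line alone, at 1.88 ± 0.599 CPM under stress and 1.02 ± 0.104 CPM in control (0.87 ± 0.31, adjusted p = 0.0459). That call was lost in 10 of 12 fits that each left out 1 library (adjusted p up to 0.216, without sensitive stress replicate 1), and the difference between the lines was not called (-1.08 ± 0.43, adjusted p = 0.267).

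A stretch of chromosome 7 from 15358960 to 15409801, in the coordinates of the table, holds PIP2-4, PIP2-5 and PIP2-1 in that order on the same strand. PIP2-4, whose row merges LOC_Os07g26630 and LOC_Os07g26640, had 1.61, 0.472 and 1.92 CPM in tolerant stress, against 37.3, 33.8 and 27.1 CPM in tolerant control. It had 2.66, 1.71 and 2.099 CPM in sensitive stress, against 29.0, 36.5 and 35.0 CPM in sensitive control. Its fall was larger than that of PIP2-1, with log2 fold changes of -4.61 ± 0.39 (adjusted p = 1.47e-06) and -3.96 ± 0.38 (adjusted p = 5.06e-06), a difference between genes that was not tested. PIP2-5 (LOC_Os07g26660, chromosome 7, 15376916 to 15378292) was rare, at 0.753, 0.260 and 0.422 CPM in tolerant stress, against 1.96, 1.70 and 2.60 CPM in tolerant control. In sensitive stress it was at 1.55, 1.05 and 1.57 CPM, against 2.15, 2.82 and 2.36 CPM in sensitive control. The stress libraries were all below the control libraries in both lines, and the change passed in the tolerant line (-2.12 ± 0.36, adjusted p = 0.000605) but not in the sensitive line (-0.81 ± 0.35, adjusted p = 0.0956). A locus on the opposite strand overlaps PIP2-4 and PIP2-5 with a mean of 21.7 counts a library, and another overlaps PIP1-2 with 3324, where PIP1-2 itself averaged 21901 counts. The sources used here do not say whether counting used the strand.

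Tonoplast aquaporins divided. Of 9 tested TIP genes, 3 rose and 3 fell in the tolerant line, and 4 rose and 1 fell in the sensitive line. TIP1-1 (LOC_Os03g05290, chromosome 3, 2562732 to 2564648), whose Arabidopsis relatives mark vegetative vacuoles, rose in both. It had 403, 440.2 and 406 CPM in tolerant stress, against 169.7, 155 and 174 CPM in tolerant control. It had 351, 351 and 348 CPM in sensitive stress, against 197, 188 and 195 CPM in sensitive control. The stress libraries lay above all control libraries, with log2 fold changes of 1.32 ± 0.05 (adjusted p = 2.13e-09) and 0.86 ± 0.05 (adjusted p = 1.36e-07). TIP2-2 (LOC_Os06g22960, chromosome 6, 13407319 to 13408859) had 95.9, 102 and 104 CPM in tolerant stress, against 41.3, 44.5 and 38.4 CPM in tolerant control. It had 81.9, 83.9 and 84.4 CPM in sensitive stress, against 47.6, 52.6 and 48.2 CPM in sensitive control. It also rose without overlap, by 1.28 ± 0.07 (adjusted p = 2.45e-08) and 0.75 ± 0.07 (adjusted p = 3.7e-06). TIP1-2, named after its values were seen, rose by 0.74 ± 0.15 (adjusted p = 0.00176) and 0.55 ± 0.15 (adjusted p = 0.0128). In the sensitive line its call was lost without sensitive stress replicate 1 (0.41, adjusted p = 0.0635).

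The seed-type TIP3 genes changed little on the TMM scale. TIP3-1 had 1967, 2036 and 1952 CPM in tolerant stress and 1906, 1848 and 2084 CPM in tolerant control, which overlapped (0.03 ± 0.04, adjusted p = 0.67). In the sensitive line it had 2197, 2153 and 2062 CPM under stress, all above the 1903, 1869.7 and 1836 CPM of control (0.19 ± 0.04, adjusted p = 0.00467). The difference between the lines was not called (-0.16 ± 0.06, adjusted p = 0.233). With library totals alone TIP3-1 was higher under stress in both lines, by 0.35 in the tolerant (adjusted p = 0.000403) and 0.61 in the sensitive line (adjusted p = 3.74e-06), and in the deposited FPKM all stress libraries were above the control libraries of their line. TIP3-2 (LOC_Os04g44570, chromosome 4, 26380265 to 26381607) had 25.6, 27.5 and 27.2 CPM in tolerant stress and 29.4, 28.6 and 32.3 CPM in tolerant control, and 27.4, 27.4 and 25.3 CPM in sensitive stress and 26.4, 26.2 and 27.0 CPM in sensitive control. It passed in neither line (-0.17 ± 0.07, adjusted p = 0.0872, and 0.01 ± 0.07, adjusted p = 0.935), its tolerant value turned to 0.15 in library totals alone and in FPKM, and its sensitive value became 0.43 with library totals alone (adjusted p = 0.00125). The summed endosperm markers of the same libraries fell. Of 5 embryo and aleurone markers, 3 were called lower in the tolerant line, and 2 lower and 1 higher in the sensitive line. In FPKM their sum was 1897 in tolerant stress against 2810 in control, and 2341 in sensitive stress against 2521 in control. In sensitive stress the markers Em1 (127 FPKM), VP1 (13.9) and Rab16A (25.5) averaged above sensitive control (104, 10.2 and 9.21), while OLE16 and OLE18 averaged below. A row on the opposite strand, listed under the same gene name, overlaps TIP3-1 with a mean of 1080.1 counts, against 185259 for TIP3-1 itself.

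TIP4-2 (LOC_Os01g13130, chromosome 1, 7302080 to 7303788) fell about as steeply as PIP1-3. It had 0.954, 0.934 and 0.882 CPM in tolerant stress, against 8.92, 8.70 and 11.1 CPM in tolerant control. It had 0.860, 0.767 and 1.10 CPM in sensitive stress, against 10.9, 10.3 and 12.1 CPM in sensitive control. No library of 1 treatment came near the other, with changes of -3.37 ± 0.17 (adjusted p = 1.36e-08) and -3.61 ± 0.17 (adjusted p = 1.29e-08). Its neighbour TIP4-3, named after its values were seen, had 12, 0 and 0 counts in tolerant stress and 36, 47 and 34 counts in tolerant control. It was called lower there (adjusted p = 0.046), a call lost in 11 of 12 fits without 1 library (adjusted p up to 0.0978, without tolerant stress replicate 3). TIP5-1 (LOC_Os04g46490, chromosome 4, 27575661 to 27576996), whose Arabidopsis relative is known from pollen, had 0.172, 0.356 and 0.713 CPM in tolerant stress, against 2.48, 2.09 and 2.29 CPM in tolerant control. It had 0.919, 0.355 and 0.471 CPM in sensitive stress and 1.22, 0.853 and 0.826 CPM in sensitive control, which overlapped. It fell in the tolerant line (-2.46 ± 0.50, adjusted p = 0.00203) and did not pass in the sensitive line (-0.73 ± 0.48, adjusted p = 0.283), and the difference of the responses was not called (-1.73 ± 0.68, adjusted p = 0.256).

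NIP genes were expressed at low levels and moved in both directions. Of 6 tested, 1 rose and 3 fell in the tolerant line, and 2 rose and 3 fell in the sensitive line. NIP2-2 (LOC_Os06g12310, chromosome 6, 6648387 to 6653005), the silicon channel also known as Lsi6, had 8.68, 8.99 and 9.28 CPM in tolerant stress, against 30.9, 28.8 and 29.3 CPM in tolerant control. It had 9.78, 12.02 and 11.6 CPM in sensitive stress, against 31.2, 28.2 and 29.2 CPM in sensitive control. The groups did not overlap, with changes of -1.72 ± 0.09 (adjusted p = 1.99e-08) and -1.41 ± 0.09 (adjusted p = 1.64e-07). The other NIP genes described here were named after their values were seen. NIP2-1 (LOC_Os02g51110, chromosome 2, 31266245 to 31269960), the silicon influx channel Lsi1 of roots, went the other way. It averaged 8.77 ± 0.248 CPM in tolerant stress and 3.90 ± 0.675 CPM in tolerant control, and 10.8 ± 1.51 CPM in sensitive stress and 4.43 ± 1.32 CPM in sensitive control (SD, n = 3). Its log2 fold changes were 1.17 ± 0.21 (adjusted p = 0.000701) and 1.29 ± 0.21 (adjusted p = 0.000372). In FPKM, NIP2-1 averaged 4.69 and NIP2-2 3.45 in tolerant stress, against 1.65 and 9.07 in tolerant control. The order of this pair of silicon channels was thus reversed between treatments, and in sensitive stress it was likewise 5.80 and 4.29, against 1.78 and 8.51 in sensitive control.

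NIP3-1 (LOC_Os10g36924, chromosome 10, 19778055 to 19785158), a boric acid channel, averaged 9.97 ± 0.464 CPM in tolerant stress and 19.6 ± 0.544 CPM in tolerant control, a change of -0.97 ± 0.10 (adjusted p = 6.85e-06). Sensitive libraries averaged 9.29 ± 0.609 CPM under stress and 15.5 ± 1.60 CPM in control (-0.74 ± 0.10, adjusted p = 8.46e-05), which became -0.32 with library totals alone. NIP1-3 fell by 1.34 ± 0.19 on the log2 scale in the tolerant line (adjusted p = 0.000118) and by 0.66 ± 0.18 in the sensitive line (adjusted p = 0.015). The sensitive call of NIP1-3 was lost with library totals alone (-0.25, adjusted p = 0.302) and without sensitive control replicate 1 or 2 or sensitive stress replicate 2 (adjusted p = 0.0524 to 0.0633). NIP1-1 rose in the sensitive line (1.27 ± 0.36, adjusted p = 0.0161), a call lost without sensitive control replicate 1 or 3 or sensitive stress replicate 1 (adjusted p = 0.0513 to 0.0749), and had 0.63 ± 0.35 in the tolerant line (adjusted p = 0.198). NIP4-1 was at 0.380 to 0.468 CPM in all group means and passed in neither line. Of the SIP pair, also named after their values were seen, SIP1-1 fell in both lines, by 0.89 ± 0.22 (adjusted p = 0.00742) and 0.67 ± 0.22 (adjusted p = 0.0341) on the log2 scale. Neither SIP1-1 call held with library totals alone (-0.55, adjusted p = 0.0530, and -0.26, adjusted p = 0.363), and the sensitive one was lost without any 1 of 5 of the 6 sensitive libraries, control replicate 3 excepted (adjusted p = 0.0679 to 0.118). SIP2-1 had 0.63 ± 0.36 (adjusted p = 0.213) and 0.34 ± 0.36 (adjusted p = 0.528).

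The make-up of the aquaporin transcripts differed between treatments. PIP genes held 16.7 ± 0.349% of the summed aquaporin FPKM in tolerant stress and 32.0 ± 0.994% in tolerant control, and 16.4 ± 0.554% in sensitive stress and 31.5 ± 0.690% in sensitive control (SD, n = 3). TIP genes held 81.8 ± 0.455% in tolerant stress and 65.6 ± 0.846% in tolerant control, and 81.9 ± 0.627% in sensitive stress and 66.1 ± 0.616% in sensitive control. NIP and SIP genes each held between 0.562% and 1.497% of any library. The PIP, TIP and NIP shares of the 6 stress libraries did not overlap with those of the 6 control libraries, while the SIP shares overlapped across the lines, and no test was made of the shares. Because TIP3-1 is so abundant, the shares were also computed without it, a choice made after its values were seen. PIP genes then held 45.8 ± 0.949% in tolerant stress and 75.7 ± 0.727% in tolerant control, and 49.4 ± 0.469% in sensitive stress and 73.4 ± 0.770% in sensitive control. TIP genes without TIP3-1 held 50.2 ± 1.17% in tolerant stress and 18.7 ± 0.404% in tolerant control, and 45.5 ± 0.571% in sensitive stress and 21.0 ± 0.627% in sensitive control. In tolerant stress the other TIP genes thus exceeded all PIP genes together in each of 3 libraries, while in sensitive stress they were below them in each of 3.

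**Figure D3:**
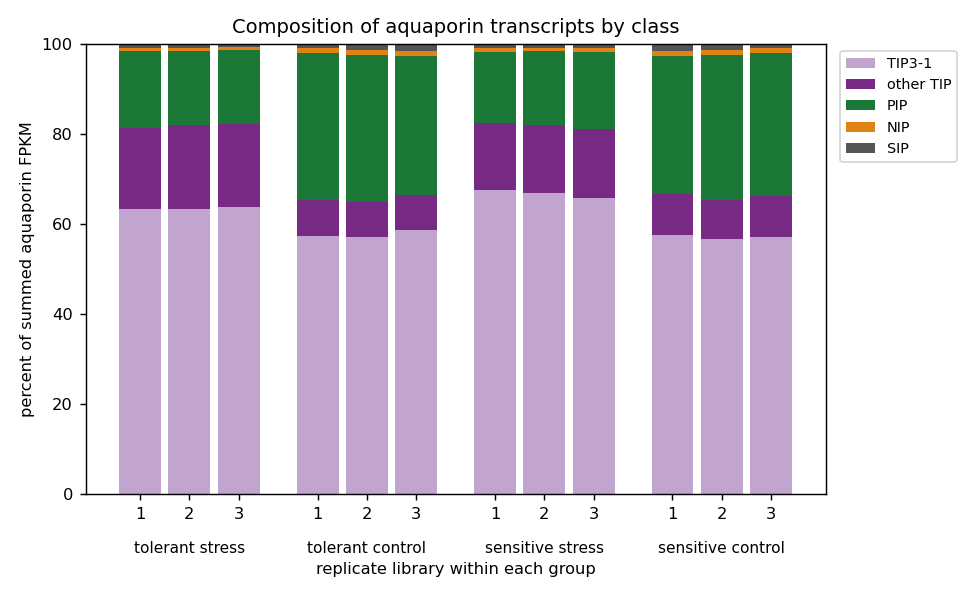
Stacked shares of the summed aquaporin FPKM in each library, in percent, split into TIP3-1, the other TIP genes, PIP, NIP and SIP. The PIP share is 15.9% to 17.1% in the 6 stress libraries and 30.7% to 32.6% in the 6 control libraries.

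The second comparison set the tolerant against the sensitive line within each treatment, and the third compared their responses to stress. Few aquaporins differed. In control 1 of 27 tested members was called, lower in the tolerant line, where 5.42% of all tested loci were called (2.53% higher and 2.89% lower). The members called in control changed with the scaling. Library totals alone gave 1 higher (NIP3-1) and 0 lower, where 4.88% of all loci were called. Limma on FPKM gave 3 higher with a pseudocount of 1, 2 higher with 0.1 and 5 of 23 higher with the FPKM filter. None was lower in these FPKM fits, where 5.53%, 6.09% and 10.2% of all loci were called. TIP1-1, the member called in the main fit, stayed below 0 in each of these fits without passing. Under stress 3 were called, 1 higher and 2 lower, against 3.4% of all loci (1.71% higher and 1.69% lower). The response differed for 2 members, both with a larger rise in the tolerant line, against 2.61% of all loci (1.27% higher and 1.34% lower). These comparisons use the same libraries as those of stress against control. TIP1-1 was called in all 3. The tolerant line had less TIP1-1 in control, 166 ± 9.97 CPM against 193 ± 4.83 CPM in the sensitive line (-0.22 ± 0.05, adjusted p = 0.0348). That call did not hold without TMM factors (library totals alone, -0.11, adjusted p = 0.495), nor in any of 3 FPKM fits (-0.14, adjusted p = 0.102 to 0.144). Under stress it had more, 416 ± 20.6 CPM against 350.0 ± 1.47 CPM in the sensitive line (0.25 ± 0.05, adjusted p = 0.0234), and with library totals alone 0.26 without passing (adjusted p = 0.111). The libraries of the lines did not overlap in either treatment. The rise was larger in the tolerant line by 0.47 ± 0.08 on the log2 scale (adjusted p = 0.00567).

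TIP2-2 showed the same order. It had 41.4 ± 3.05 CPM in tolerant control and 49.5 ± 2.75 CPM in sensitive control (-0.26 ± 0.07, adjusted p = 0.0504). Under stress it had 100.4 ± 4.01 CPM in the tolerant and 83.4 ± 1.32 CPM in the sensitive line (0.27 ± 0.07, adjusted p = 0.0553). Neither difference passed alone, although the libraries did not overlap, while the difference of the responses passed (0.52 ± 0.10, adjusted p = 0.0117). With library totals alone neither response difference passed, at 0.37 for TIP1-1 (adjusted p = 0.112) and 0.42 for TIP2-2 (adjusted p = 0.153). Both passed without any 1 library, with adjusted p up to 0.0179 and 0.0366. In the same test of the difference, 3 of 5 endosperm markers were called (1 higher and 2 lower), 3 of 5 embryo and aleurone markers (all lower) and 1 of 5 green tissue markers (lower), and their part in these results was not tested.

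PIP2-1 and PIP2-5 were lower in the tolerant line under stress. PIP2-1 had 241 ± 13.1 CPM in the tolerant and 278 ± 8.496 CPM in the sensitive line (-0.21 ± 0.05, adjusted p = 0.0311), and its response differed by -0.27 ± 0.07 without passing (adjusted p = 0.0541). With library totals alone the stress call of PIP2-1 was lost (-0.19, adjusted p = 0.255). PIP2-5 had 0.479 ± 0.251 CPM in the tolerant and 1.39 ± 0.298 CPM in the sensitive line (-1.54 ± 0.36, adjusted p = 0.0366; difference of the responses -1.31 ± 0.49, adjusted p = 0.234). No call between the lines within a treatment held in all 12 fits that each left out 1 library, 0 of 1 in control and 0 of 3 under stress. The control call of TIP1-1 was lost in 8 of 12 fits without 1 library (adjusted p up to 0.113, without tolerant control replicate 2) and its stress call in 4 of 12, those without tolerant stress replicate 2 or any sensitive stress library (adjusted p = 0.0779 to 0.101). The stress call of PIP2-1 was lost in 6 of 12 (adjusted p up to 0.127, without sensitive stress replicate 1) and that of PIP2-5 in 8 of 12 (adjusted p up to 0.134, without tolerant stress replicate 3).

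**Figure D4:**
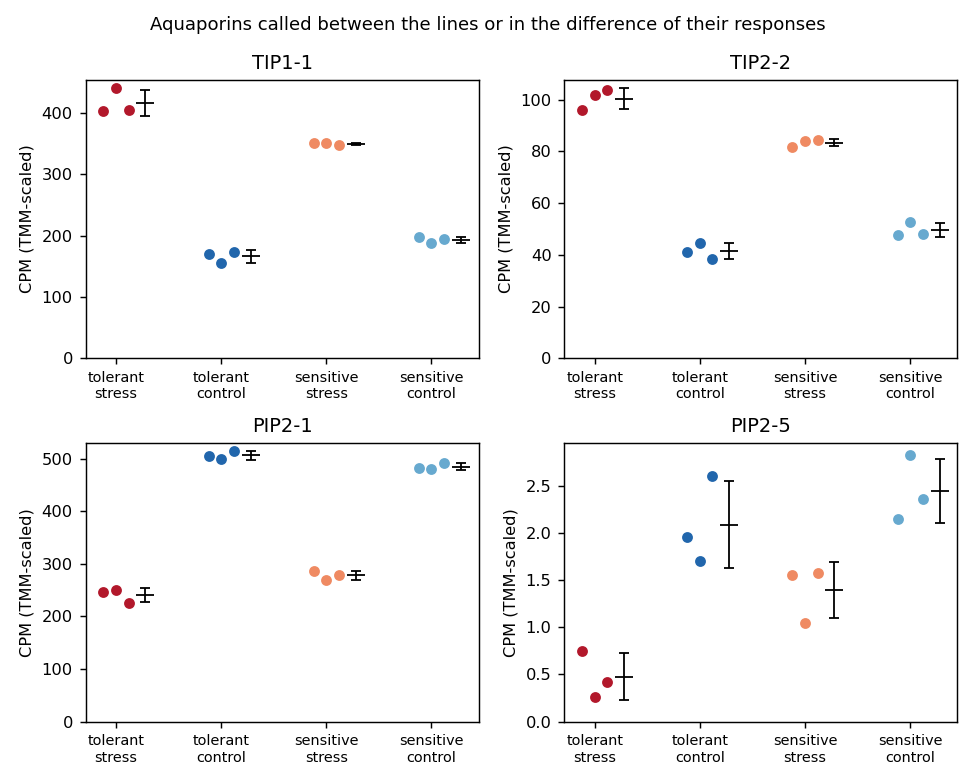
CPM (TMM-scaled) of TIP1-1, TIP2-2, PIP2-1 and PIP2-5 in each library, with the mean and SD of 3 libraries beside the points. TIP1-1 and TIP2-2 are highest in tolerant stress and lowest in tolerant control, and PIP2-5 lies below 1 CPM in the 3 tolerant stress libraries.

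Transporters that work beside aquaporins were counted from annotation words. Proton pumps energise the vacuolar and plasma membranes. Of 7 loci listed as vacuolar proton pyrophosphatases, 4 rose and 1 fell in the tolerant line, and 4 rose and 0 fell in the sensitive line, with medians of 0.18 and 0.29. The annotation of LOC_Os02g33490 among them names a pyrophosphate-energized membrane proton pump without the word vacuolar. The called loci made up 71.4% in the tolerant and 57.1% in the sensitive line, where 33.2% and 32.1% of all tested loci were called. LOC_Os06g43660 rose by 0.95 ± 0.10 in the tolerant and 0.93 ± 0.10 in the sensitive line. LOC_Os05g06480 rose by 0.92 ± 0.06 in the tolerant and 0.29 ± 0.06 in the sensitive line, a difference of 0.63 ± 0.09 that passed (adjusted p = 0.00161). Its level was 165, 166 and 177 CPM in tolerant stress and 89.4, 84.1 and 94.2 CPM in tolerant control, and 179, 174 and 161 CPM in sensitive stress and 143, 138 and 139.9 CPM in sensitive control. As with TIP1-1, tolerant control was the lowest group, but unlike TIP1-1 its levels in the lines were near each other under stress (-0.02 ± 0.06, adjusted p = 0.962). Of 22 V-type proton ATPase subunits, 1 rose and 9 fell in the tolerant line, and 1 rose and 5 fell in the sensitive line, with medians of -0.23 and -0.26. These were 45.5% called in the tolerant line and 27.3% in the sensitive line, the second below the 32.1% of all loci. The 16 kDa proteolipid gene LOC_Os02g34510 fell most among those called, by 0.74 ± 0.13 and 0.64 ± 0.13 on the log2 scale. Of 6 plasma membrane proton ATPases, 0 rose and 4 fell in the tolerant line and 0 rose and 2 fell in the sensitive line. The called shares were 66.7% and 33.3%, the second near the 32.1% of all loci. LOC_Os07g09340 was at -0.58 ± 0.05 and -0.48 ± 0.05. Calls in these lists were made on the TMM scale alone. In the deposited FPKM LOC_Os04g56160 averaged 138 in tolerant stress and 127 in tolerant control, where its CPM were 817 and 947. The V-type subunit LOC_Os06g45120 had 25.2 and 22.8 FPKM in the same groups, but 83.6 and 95.3 CPM. In the sensitive line the 4 V-type subunits with the highest mean CPM averaged lower under stress in CPM but higher in FPKM. Their FPKM, stress against control, were 26.3 against 21.02 (LOC_Os10g10500), 25.96 against 22.81 (LOC_Os06g45120), 42.7 against 35.9 (LOC_Os01g46980) and 28.3 against 24.7 (LOC_Os04g55040). LOC_Os02g34510 stayed lower there, at 12.2 against 14.3 FPKM. In the tolerant line LOC_Os04g55040 also averaged lower in FPKM. LOC_Os07g09340 stayed lower under stress, at 44.5 and 52.9 FPKM in the tolerant and 42.7 and 44.8 FPKM in the sensitive line.

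Boron and silicon efflux transporters export what NIP channels let in. Of 7 such loci, 3 rose and 3 fell in the tolerant line, and 1 rose and 2 fell in the sensitive line, or 85.7% and 42.9% called against 33.2% and 32.1% of all loci. LOC_Os05g08430, annotated as a putative boron transporter 5, had 4.96, 4.35 and 5.67 CPM in tolerant stress, against 0.370, 0 and 0 CPM in tolerant control. It had 2.49, 3.33 and 3.47 CPM in sensitive stress and 0 in all 3 sensitive control libraries, so no fold is given. LSI2 (LOC_Os03g01700), the silicon exporter known to work with Lsi1 in roots, was at 0.849, 1.05 and 1.13 CPM in tolerant stress, against 0.0954, 0.139 and 0 CPM in tolerant control (adjusted p = 0.00419). The sensitive libraries had 1.16, 0.776 and 0.894 CPM under stress and 0.550, 0.210 and 0.210 CPM in control (adjusted p = 0.137). The LSI2-like locus LOC_Os02g57620 fell in both lines, by 1.39 ± 0.12 and 1.45 ± 0.12 on the log2 scale.

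**Figure D5:**
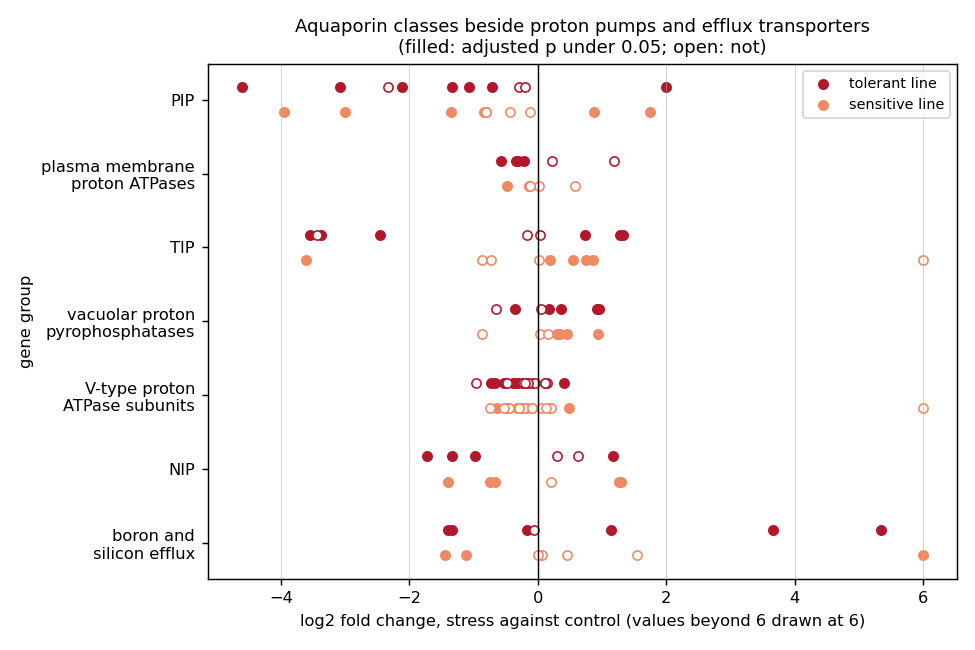
Log2 fold change of stress against control for each tested gene of the PIP, TIP and NIP classes and of 4 groups of related transporters, with the tolerant line above the sensitive line in each group and filled points past an adjusted p under 0.05. Called plasma membrane proton ATPases all lie left of 0 on this TMM scale, as do most called PIP genes. By FPKM the plasma membrane proton ATPase LOC_Os04g56160 averaged higher under stress in both lines, while LOC_Os07g09340 averaged lower in both. The sensitive-line values of TIP2-1 and LOC_Os05g08430, both at 0 in sensitive control, are drawn at 6.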

How the data were processed

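RNA sequencing was analysed for 12 rice libraries in 4 groups of 3. Per the file headers, the authors deposited unnormalised counts for each locus together with FPKM, fragments scaled by transcript length and library size. How the authors scaled the deposited FPKM is not stated in these sources, and 0.0001 stands there where the count is 0. The submitters' processing notes list, without roles, edgeR and DESeq2 beside StringTie 2.1.6, HISAT2 2.2.1 and cutadapt 1.9. The notes name a mouse build while the identifiers are rice loci, so the build of the printed coordinates is not known. Whether counting used the strand is not given either.

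Counts were fitted with edgeR 4.0.16 in R 4.3.3 (quasi-likelihood test, TMM factors, filterByExpr, 1 mean per group, 8 residual degrees of freedom). Two-sided p-values were adjusted by Benjamini-Hochberg over all 33281 tested loci and called under 0.05; the 5381 loci without a gene name in the table were kept. Levels are given as TMM-scaled CPM within a gene and as FPKM between genes. Alternatives were RLE factors, library totals alone, no filter on low counts, DESeq2 1.42.0, limma 3.58.1 on log2(FPKM + 1) or log2(FPKM + 0.1), an FPKM filter, counts divided by 4, a replicate block and each library left out. The fit was also run on data simulated from its own fitted model, which cannot test departures of the real counts from that model. Values were given by library for the 8 members with the highest mean FPKM and, per comparison, for up to 6 called members with the largest fold change among those with at least 1 CPM in a group mean; of each related list at most 3 called loci per comparison could be named. The members and lists were chosen with earlier results of these data known. Same-numbered libraries did not deviate together, with correlations of their deviations from -0.0123 to 0.0287 over 18 pairs.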

Additional observations from a re-analysis of the deposited data

Results flagged for a closer look

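The response of TIP1-1 to stress differed between the lines in the edgeR test of the difference, by 0.47 on the log2 scale, tolerant minus sensitive (adjusted p = 0.00567). Its log2 fold change was 1.32 in the tolerant and 0.86 in the sensitive line. The response of TIP2-2 differed in the same test by 0.52 (adjusted p = 0.0117), with 1.28 in the tolerant and 0.75 in the sensitive line. Neither difference passed in edgeR with library totals alone, at 0.37 for TIP1-1 (adjusted p = 0.112) and 0.42 for TIP2-2 (adjusted p = 0.153).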

How the results depend on the processing

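The number of aquaporins called for stress stayed within 1.5 times the reported 18 in each line under every alternative run, at 17 to 21 in the tolerant and 14 to 19 in the sensitive line. In these runs 27.3% to 54.8% of all loci were called in the tolerant and 26.1% to 55.4% in the sensitive line. Leaving out 1 library gave 17 to 18 calls in the tolerant and 14 to 18 in the sensitive line, and 17 of 18 tolerant and 13 of 18 sensitive calls held in all 12 such fits. Of the calls between the lines, 0 of 1 in control and 0 of 3 under stress held in all 12. For the difference of the responses 2 of 2 did. Between the lines in control, where 1 of 27 was called (lower) beside 5.42% of all loci, library totals alone also called 1 (higher, 4.88%). DESeq2 called 4 (2 higher and 2 lower), where 9.09% of all loci were called. Limma on FPKM called 3 with a pseudocount of 1 (5.53% of all loci) and 2 with 0.1 (6.09%). With the FPKM filter it called 5 of 23 (10.2%), and all calls in these FPKM fits were higher. Counts divided by 4 gave 2 of 24 (both lower, 7.28%), and leaving out 1 library gave 0 to 1 (3.2% to 4.82%). Under stress, where 3 were called beside 3.4% of all loci, library totals alone gave 1 (2.09%) and DESeq2 6 (5.64%). The FPKM filter gave 6 of 23 (7.91%), and leaving out 1 library 0 to 4 (1.96% to 3.1%). For the difference of the responses, where 2 were called beside 2.61% of all loci, library totals alone gave 0 (1.97%) and DESeq2 4 (5.28%). The FPKM filter gave 4 of 23 (6.09%), and leaving out 1 library 2 to 3 (1.81% to 2.33%). TIP3-2 in the tolerant line, at -0.17, turned to 0.15 on log2(FPKM + 1), with or without the FPKM filter, and 0.16 on log2(FPKM + 0.1). Limma called it higher in each of these fits (adjusted p = 0.0363 to 0.0390), where the main fit called no change. The cause was not tested. The replicate numbers are shared between groups but did not pair the libraries. A replicate block gave 18 calls in the tolerant and 16 in the sensitive line, beside 31.3% and 30.2% of all loci. It gave 0 between the lines in control (4.24% of all loci), 1 under stress (2.59%) and 2 for the difference (1.89%). By CPM the PIP share was 19.4% in tolerant stress, 36.1% in tolerant control, 19.0% in sensitive stress and 35.5% in sensitive control. Summing rows of a gene was not run, because no gene name had more than 1 aquaporin row. PIP2-1, TIP3-1, TIP5-1 and NIP3-2 each had 1 further row of that gene name without the word aquaporin, which was left out. Counts below about 20 limit the rarest members.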
